A study of Rattus norvegicus with 42 samples.

Results

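Whole blood was compared between 6 reperfused-MCAO rats and 6 permanent-MCAO rats that had all been given tPA, 12 of the 42 arrays of the series, taken by their group labels. All animals were male Sprague-Dawley rats, an outbred stock. Middle cerebral artery occlusion (MCAO), a model of ischemic stroke, was made by passing a suture up the right carotid artery under isoflurane. In reperfused-MCAO the suture was withdrawn after 2 h, and in permanent-MCAO it stayed until blood was drawn from the heart at 24 h. tPA, recombinant human tissue plasminogen activator, the drug that turns plasminogen into the clot-dissolving protease plasmin, was injected into the peritoneum at 3.3 mg/kg, 3 h after the start of the occlusion. The artery was closed by a suture and not by a clot, so the surgery and not the drug set which rats were reperfused, and the drug was a human protein in a rat. For comparison, reperfused-MCAO and permanent-MCAO rats without tPA (6 each) went through the same surgery, and naive rats, rats with anesthesia alone and rats given tPA without MCAO (6 each) supply the level of a gene outside stroke. The rats were young adults, each array holds the blood of 1 rat, and the labels name no shared litter or surgery day. The comparison asks how the blood transcriptome differed with reperfusion when every rat with stroke had received the drug.

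Expression was measured on Affymetrix arrays covering the rat genome, and each value is a log2 signal that the authors normalized with GC-RMA. Array medians lay between 3.05 and 3.26, and 13232 of 31042 gene probes had a mean of at least log2 4 over all 42 arrays. Below that level a gene is dim. This also holds for Aldoc, Klrc1, Pros1, Cd99, Fcer1a, Sparc, Xk and Csf1, at means from 3.08 to 3.98, where the word is not repeated. A gene probe was called where limma gave an unadjusted p of at most 0.01 with a fold change of at least 1.2. Of the 31042 gene probes, 103 (0.332%) were called, 60 higher and 43 lower in reperfused-MCAO + tPA than in permanent-MCAO + tPA. After Benjamini-Hochberg adjustment of the limma p-values over all gene probes at 0.05, 0 (0.0%) passed, the smallest adjusted p being 0.623, while 622 fell under 0.05 before adjustment. A share of 1% of the 31042 is 310, against 106 gene probes at a p of at most 0.01 with no fold threshold, and a share of 5% is 1552, against the 622, so the comparison held fewer small p-values than evenly spread ones would give. The methods' test, which shares no variance between gene probes, called 73 of them, gave 0 after adjustment and had 557 under 0.05. Differences below are therefore calls at an unadjusted threshold, and apart from Aif1 and a further gene probe of Ifit2 (0.623 each) the adjusted p of every gene named here for this comparison was 1.0 after rounding. With 1 gene probe per gene, 43 of 14217 genes were called higher (0.302%) and 15 lower (0.106%).

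The permanent-MCAO + tPA rats were the more varied group. Over the 13232 brighter gene probes the median SD was 0.452 on the log2 scale in permanent-MCAO + tPA and 0.32 in reperfused-MCAO + tPA, against 0.284 to 0.338 in the other 5 groups, and 74.1% of those gene probes had the larger SD in permanent-MCAO + tPA. Permanent-MCAO + tPA replicate 1 stood apart from its group, with a median correlation to the other arrays of the group of 0.959. Replicate 2 was next at 0.977, close to the 0.979 to 0.982 of the other 4. Replicate 1 had the highest mean of its group for the erythroid and reticulocyte genes (log2 11.49, against 10.21 to 10.76) and for the cell division genes (6.83, against 5.56 to 6.03), and the lowest for the T cell genes (8.19, against 8.85 to 9.78). In permanent-MCAO + tPA replicate 4 the heart muscle genes averaged 2.73 against 2.15 to 2.31 in the other 11 arrays, with the heart myosin gene Myh6 at 6.04, and the neutrophil genes were lowest (6.82). Without replicates 1 and 2, 468 gene probes were called, of which 47 were among the 103, with the smallest adjusted p at 0.0723. Their part in the results below was not tested beyond the values given without them. The hybridization controls, RNAs added at a known amount to check the staining of each array, averaged log2 12.1 ± 0.181 in reperfused-MCAO + tPA and 11.98 ± 0.369 in permanent-MCAO + tPA (SD, n = 6 each), a difference of 0.123 (two-sided exact permutation test, p = 0.502).

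Type I interferons are signaling proteins that cells release when they sense foreign or misplaced nucleic acid. They bind the receptor formed by Ifnar1 and Ifnar2, the kinases Jak1 and Tyk2 then phosphorylate Stat2, which acts with Irf9 at a DNA motif, the interferon-stimulated response element, to switch on a large set of antiviral genes. Blood leukocytes carry this program at a basal level, and it is among the most readily measured responses in whole blood.

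The interferon response genes gave the most calls of any gene list examined. Of 38 measured genes, 34 had a higher mean in reperfused-MCAO + tPA, 9 were called higher and none was called lower, against 0.302% called higher among all genes. The median log2 difference over the 38 genes was 0.41, against 0.0 over all 14217 genes, of which 45.6% had a higher mean. The genes called were Rtp4, Isg15, Usp18, Mx2, Oasl, Ifit2, Herc6, Eif2ak2 and Dtx3l, with fold changes from 1.31 to 2.59. In whole blood, fewer cells of a type and less RNA per cell cannot be told apart.

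The motif of this program stands in the DNA just upstream of many genes of the list, though of the called genes only Eif2ak2 was found to hold it. The search used the letters GAAANNGAAA or TTTCNNTTTC, the core of the response element on either strand, in the 250 bases before the transcription start of each RefSeq promoter (GRCr8 assembly). Of 29 interferon response genes with a promoter in that table, 18 (62.1%) held it, against 1140 of all 33469 promoters (3.41%). Of the genes called, promoters were matched for Eif2ak2, which held it, and for Herc6, Oasl and Dtx3l, which did not have these letters in the window. Rtp4, Isg15, Usp18, Mx2 and Ifit2 had no promoter in that table and were not searched. The 100 bases before the start are shown for Eif2ak2 as the called gene that holds the motif, and for Ifit3 and Parp14 as genes of the list that lay in the same direction without being called. Capitals mark the motif. Both strands were searched, and overlapping matches were each counted.
Eif2ak2, chr6:21941054-21941153, plus strand: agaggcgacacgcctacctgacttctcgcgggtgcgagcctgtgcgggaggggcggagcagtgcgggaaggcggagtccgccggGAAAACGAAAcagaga
Ifit3, chr1:241527226-241527325, plus strand: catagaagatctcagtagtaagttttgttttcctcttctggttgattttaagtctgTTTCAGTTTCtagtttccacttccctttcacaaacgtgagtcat
Parp14, chr11:78408034-78408133, plus strand: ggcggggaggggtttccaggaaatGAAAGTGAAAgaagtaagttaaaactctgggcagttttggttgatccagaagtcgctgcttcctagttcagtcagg
Counted from the start, the match began at base -16 in Eif2ak2, at -44 in Ifit3, where it lies on the opposite strand, and at -76 in Parp14. A match is a description of these letters and not a measured binding site.

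Of the 9 called genes, Rtp4, Isg15, Mx2, Ifit2, Oasl and Eif2ak2 are given first, with differences from 0.52 to 1.38. Rtp4, a chaperone of cell surface receptors, lay at log2 7.01, 7.55 and 8.07 (lowest, median and highest) in reperfused-MCAO + tPA and at 5.44, 6.14 and 7.38 in permanent-MCAO + tPA, a difference of 1.38 (SE 0.318, 2.59-fold). Only permanent-MCAO + tPA replicate 5 reached into the reperfused range. Isg15, a ubiquitin-like protein that is attached to other proteins, lay at 9.56, 10.42 and 11.12 against 7.92, 9.12 and 10.11, a difference of 1.36 (SE 0.384). The same array was again the one that overlapped. Mx2, a GTPase that acts against viruses, lay at 4.54, 5.23 and 5.34 against 3.05, 4.14 and 4.34, a difference of 1.14 (SE 0.246). The groups did not overlap for Mx2, although a dimmer gene probe of the gene differed by -0.32 (SE 0.267) and was not called. Ifit2, which binds foreign RNA, lay at 7.7, 8.28 and 8.5 against 6.48, 7.25 and 7.92, a difference of 1.01 (SE 0.229). A further gene probe of Ifit2 differed by 1.24 (SE 0.196) with no overlap, and its limma adjusted p of 0.623 was the lowest of the comparison, a value shared with Aif1. Oasl, a relative of the oligoadenylate synthetases that start the decay of RNA, lay at 8.11, 9.06 and 9.72 against 6.84, 7.94 and 8.63, a difference of 1.14 (SE 0.339). Permanent-MCAO + tPA replicates 5 and 6 lay within the reperfused range for Oasl. Eif2ak2, the RNA-sensing kinase PKR whose upstream sequence is shown above, lay at 6.79, 7.11 and 7.36 against 6.19, 6.63 and 6.89, a difference of 0.52 (SE 0.151).

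Usp18 and Herc6, which remove or attach Isg15, were called as Isg15 itself was, and Dtx3l is given with them. Usp18, which removes Isg15 from proteins and restrains the interferon receptor, lay at 8.25, 8.59 and 8.87 against 6.54, 7.51 and 8.36, a difference of 1.14 (SE 0.261), with permanent-MCAO + tPA replicate 5 inside the reperfused range. Herc6, the rodent ligase that attaches Isg15, lay at 6.81, 7.11 and 7.7 against 5.41, 6.25 and 6.61, a difference of 0.97 (SE 0.219). Every reperfused-MCAO + tPA rat was above every permanent-MCAO + tPA rat. Dtx3l, a ubiquitin ligase that works with Parp9, averaged 11.37 ± 0.204 (11.1 to 11.71) against 10.98 ± 0.107 (SD, n = 6, 10.83 to 11.09), a difference of 0.39 (SE 0.0908), again with no overlap. Over all genes, 10 of 14217 did not overlap in the higher direction (0.0703%) and 5 in the lower (0.0352%), and Mx2, Herc6 and Dtx3l were 3 of the former.

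**Figure D1:**
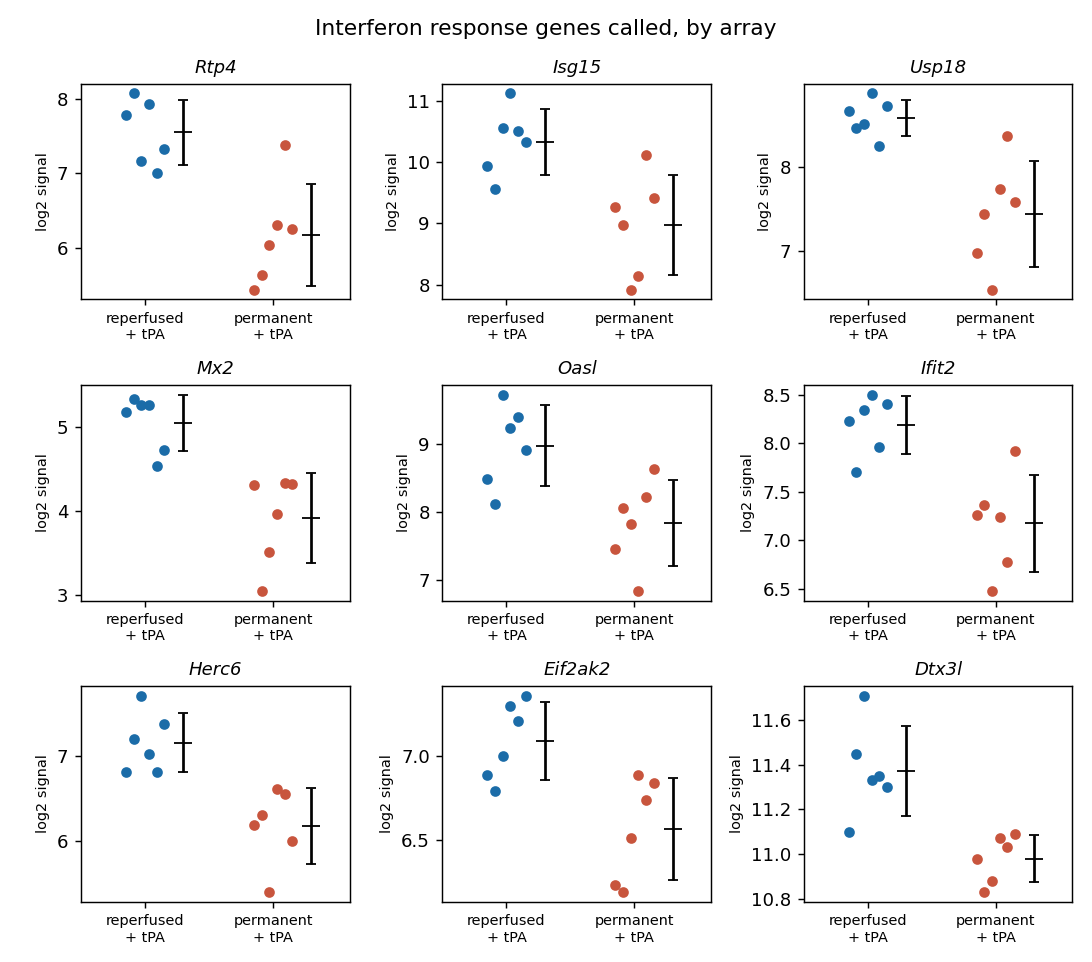
Log2 signal of the 9 called interferon response genes in each of the 6 reperfused-MCAO + tPA arrays (blue) and 6 permanent-MCAO + tPA arrays (red), with the group mean and SD as black bars; each panel has its own vertical range, which does not start at 0. The groups did not overlap for Mx2, Herc6 and Dtx3l, and 1 or 2 permanent arrays reached into the reperfused range for the other 6 genes.

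The same few arrays lay nearest to the other group across these genes. Permanent-MCAO + tPA replicate 5 was the highest of its group for 4 of the 9 called genes, replicate 6 for 3 and replicate 4 for 2. Reperfused-MCAO + tPA replicates 2 and 5 were each the lowest of their group for 4. The mean of all 38 genes was 7.95, 7.98, 8.24, 8.12, 7.7 and 8.1 in reperfused-MCAO + tPA replicates 1 to 6 and 7.26, 7.35, 7.18, 7.5, 7.9 and 7.79 in permanent-MCAO + tPA replicates 1 to 6. By this mean, reperfused replicate 5 lay below permanent replicates 5 and 6, and the other reperfused arrays lay above all permanent arrays. The number of interferon genes called ran from 6 to 13 as single arrays were left out, the most without permanent-MCAO + tPA replicate 5 and the fewest without reperfused-MCAO + tPA replicate 4 or 5. Without permanent-MCAO + tPA replicates 1 and 2, 6 interferon genes were called (Isg15, Eif2ak2 and Oasl were not, at 1.44, 0.34 and 1.09) and the median was 0.35, with 32 of 38 genes higher. That fit called 289 of all 14217 genes, so the 6 stood among many more calls than the 9 did.

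Not every interferon gene followed. Stat2, the signal transducer of the receptor, differed by 0.74 (SE 0.269) on the gene probe used and was not called there, while its other gene probe differed by 0.62 (SE 0.176) and was called. Dhx58, a helicase that senses viral RNA, differed by 0.92 (SE 0.331), Ifit3 by 0.75 (SE 0.339) and Parp14, an ADP-ribosyltransferase, by 0.4 (SE 0.15), none of them called. Irf7, the factor that amplifies interferon production, differed by 0.42 (SE 0.265), with permanent-MCAO + tPA replicate 5 the highest of the 12 arrays at 13.73. Rsad2 (viperin) differed by 0.07 (SE 0.151) and lay between 13.19 and 14.02 in both groups, Mx1 differed by 0.19 (SE 0.312) and Cmpk2, a nucleotide kinase beside Rsad2, by 0.2 (SE 0.238), with 0.38 (SE 0.289) on its other gene probe. Without permanent-MCAO + tPA replicate 1 the Mx1 difference was -0.02. Ifit1 differed by -0.95 (SE 0.868), opposite to Ifit2 and Ifit3, and lay between 4.73 and 8.89 over the 12 arrays. Ifi27 had the largest difference of the list, 2.07, with an SE of 1.23, and the permanent-MCAO + tPA arrays spread from 3.91 to 10.95.

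A set of 14 upstream genes of the pathway, chosen after the interferon values were seen, held no call. They are ligands, receptors, kinases and sensors, of which 10 had a higher mean, 0 were called and the median difference was 0.11. Stat2 and Irf5, which each had a called gene probe, are not in the set, so its lack of calls depends on the choice of members. The ligand genes Ifnb1 and Ifng were dim, at mean log2 2.34 and 2.4 in reperfused-MCAO + tPA, with differences of -0.0 (SE 0.0161) and 0.05 (SE 0.0404). The receptor subunits Ifnar1 and Ifnar2 differed by 0.09 (SE 0.197) and 0.2 (SE 0.261), and the interferon gamma receptor subunits Ifngr1 and Ifngr2 by 0.34 each (SE 0.202 and 0.253). Jak1 differed by -0.11 (SE 0.227) and Tyk2 by -0.01 (SE 0.191). Irf9, in the list of 38, differed by 0.29 (SE 0.159). Irf5, a related transcription factor of Toll-like receptor signaling, lay at 7.82, 8.19 and 8.36 against 7.33, 7.6 and 8.2, a difference of 0.46 (SE 0.148), and was called, but only in 3 of the 12 fits that left an array out.

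Rats with stroke but without tPA allow the same contrast to be set beside this one. Without tPA, the median difference between reperfused-MCAO and permanent-MCAO over the 38 interferon genes was 0.07, with 22 genes higher and 0 called. Over all 14217 genes, 5979 had the higher mean in that untreated contrast and 130 were called in either direction. With tPA, 43 of all genes were called higher and 15 lower. The difference between the contrast with tPA and that without had a median of 0.34 over the list, with 31 of 38 genes positive. Only Mx2 and Herc6 of the 38 were called in that difference of differences, at 1.68 (SE 0.527) and 1.26 (SE 0.367), against a background of 0.106% of all genes called positive and 0.183% negative, and their limma adjusted p was not below 0.978, the smallest of the table. Mx2 averaged 4.12 ± 0.892 in reperfused-MCAO and 4.66 ± 0.744 in permanent-MCAO without tPA (SD, n = 6), against 5.06 ± 0.334 and 3.92 ± 0.531 with tPA. Herc6 averaged 6.15 ± 0.402 and 6.44 ± 0.611 without tPA, against 7.15 ± 0.347 and 6.18 ± 0.438 with tPA. For Rtp4, Isg15 and Usp18 the differences of differences were 1.24 (SE 0.486), 1.5 (SE 0.765) and 1.25 (SE 0.582), none of them called.

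**Figure D2:**
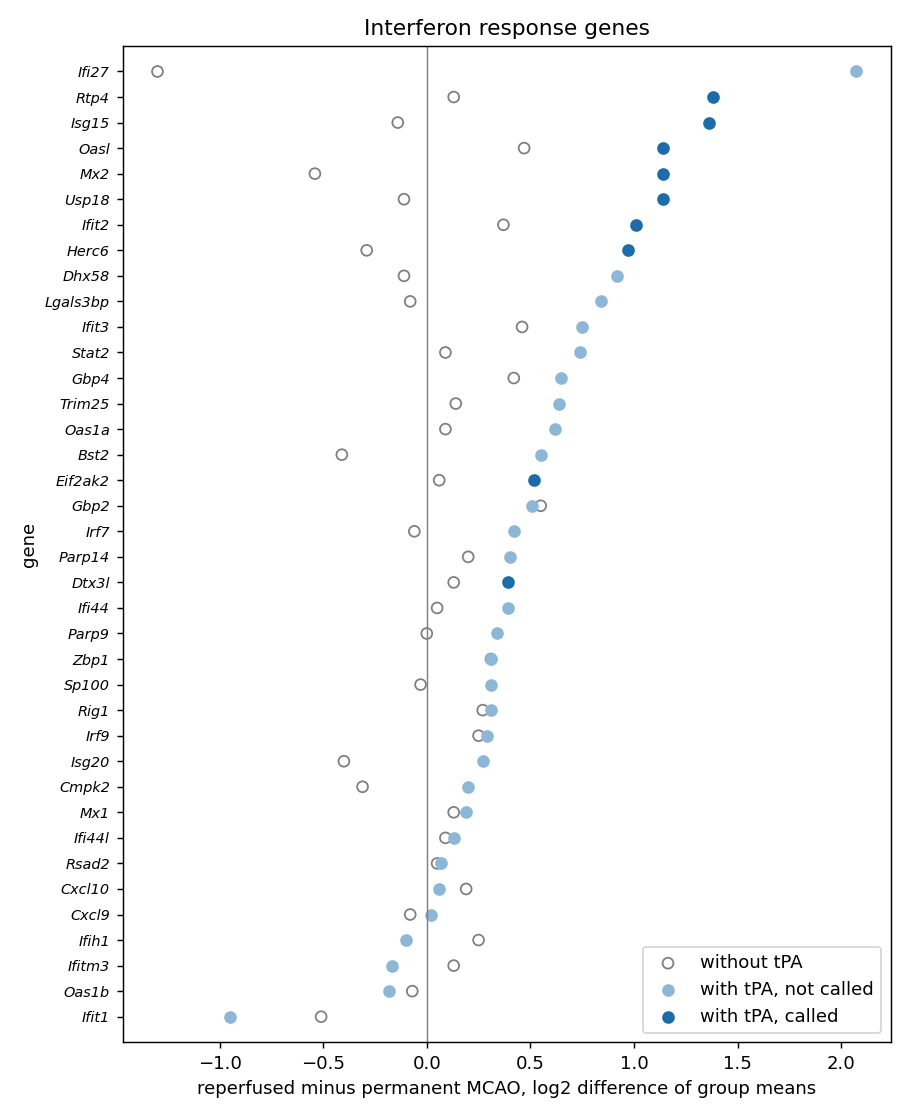
Reperfused minus permanent MCAO, as a log2 difference of group means (horizontal axis), for each of the 38 interferon response genes (vertical axis): with tPA, called (dark blue) or not called (light blue), and without tPA (open grey). With tPA 34 of the 38 genes lay to the right of 0, with a median of 0.41, and without tPA 22 did, with a median of 0.07.

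Set among all 7 groups, each of these 2 lay at the edge for some of the genes. Permanent-MCAO + tPA had the lowest mean of the 7 groups for 16 of the 38 genes (42.1%, against 12.5% of all genes), and reperfused-MCAO + tPA had the highest for 10 (26.3%, against 6.46%). Rtp4 averaged 6.17 in permanent-MCAO + tPA, against 7.55 in reperfused-MCAO + tPA and 7.25 to 7.84 in the other 5 groups, so that permanent-MCAO + tPA was the group apart. Isg15 averaged 8.97 in permanent-MCAO + tPA, 10.33 in reperfused-MCAO + tPA and 9.29 to 10.24 elsewhere. Ifit2 had the opposite form, with 8.19 in reperfused-MCAO + tPA and 7.16 to 7.53 in every other group. The mean of the whole list had a median of 7.42 in permanent-MCAO + tPA, 8.04 in reperfused-MCAO + tPA and 7.7 to 7.93 in the other 5 groups. Single arrays overlapped between groups. They ran from 7.18 to 7.9 in permanent-MCAO + tPA and from 7.7 to 8.24 in reperfused-MCAO + tPA. Without tPA they ran from 7.35 to 8.38 in permanent-MCAO and from 7.21 to 8.17 in reperfused-MCAO.

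**Figure D3:**
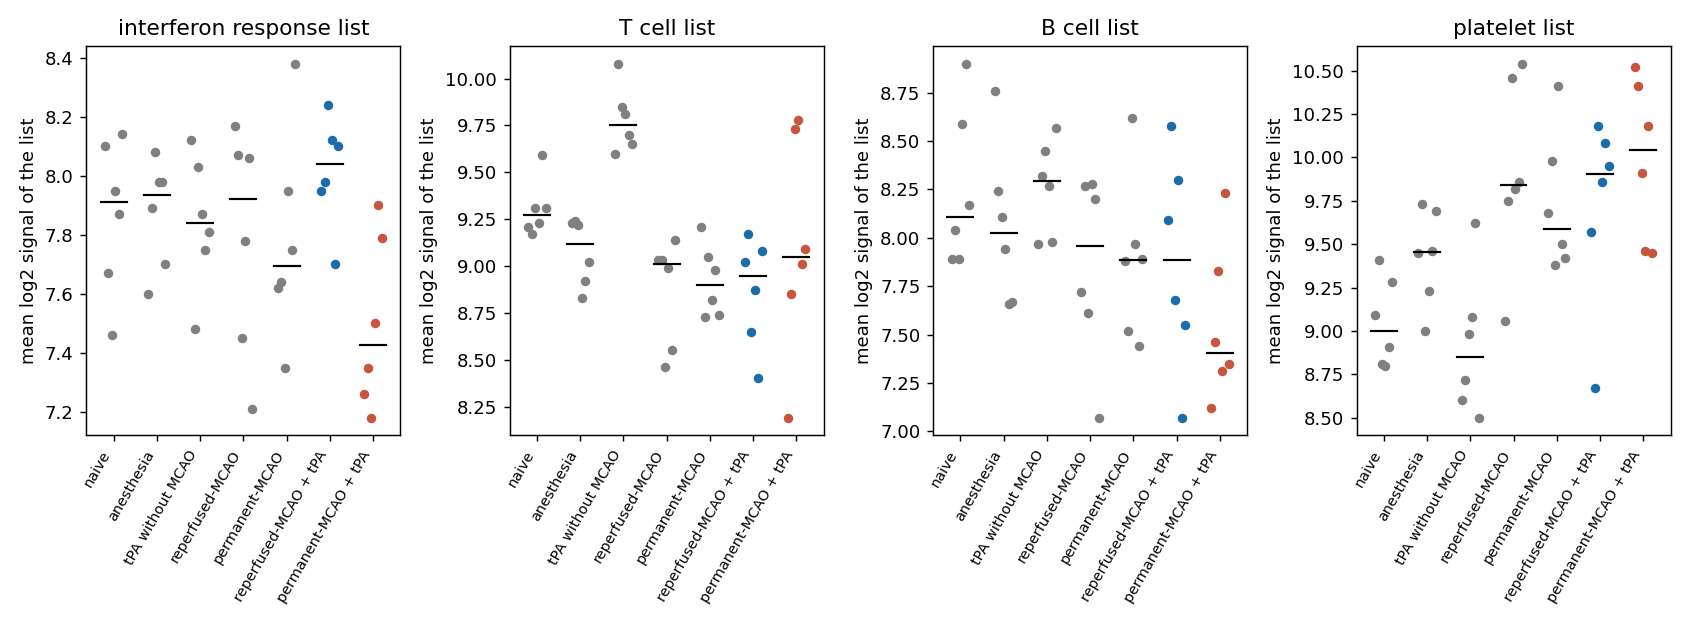
Mean log2 signal of the genes of 4 lists in each of the 42 arrays, by group, with the group median as a bar; reperfused-MCAO + tPA is blue, permanent-MCAO + tPA red and the other groups grey, and the vertical ranges do not start at 0. The interferon mean of 4 permanent-MCAO + tPA arrays lay between 7.18 and 7.5, below every reperfused-MCAO + tPA array. Permanent-MCAO + tPA replicates 5 and 6, at 7.9 and 7.79, lay above reperfused-MCAO + tPA replicate 5, at 7.7. The means of these 2 groups thus overlapped in all 4 lists.

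Outside the list, the lowest adjusted p of a called gene was that of Aif1. Aif1, an actin-binding protein of monocytes and macrophages, lay at 9.66, 9.8 and 10.13 in reperfused-MCAO + tPA and at 8.76, 8.96 and 9.49 in permanent-MCAO + tPA, a difference of 0.82 (SE 0.124, limma adjusted p = 0.623). The groups did not overlap, the call held in each of the 12 fits without 1 array and without permanent-MCAO + tPA replicates 1 and 2 together (0.73). Aif1 averaged 9.86 ± 0.27 and 9.69 ± 0.323 in the same 2 kinds of MCAO without tPA, and the difference of differences, 0.65 (SE 0.21), was called. In the other 5 groups its mean lay between 9.56 and 9.86, so permanent-MCAO + tPA, at 9.04, was the group apart.

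Cd180, a receptor of B cells and myeloid cells related to the Toll-like receptors, lay at 7.29, 7.76 and 8.52 against 6.29, 6.84 and 7.76, a difference of 0.9 (SE 0.281). Tlr4, the receptor for bacterial endotoxin, lay at 4.65, 5.18 and 5.78 against 3.67, 4.48 and 5.05, a difference of 0.8 (SE 0.256), and was the 1 called gene in the list of 20 of Toll-like receptor and innate sensing. There were 3 permanent arrays within the reperfused range for Tlr4, and the call held in 3 of the 12 fits without 1 array. Tlr1 differed by 0.61 (SE 0.216) with tPA and by 0.63 (SE 0.302) without, and was not called. Birc3, an inhibitor of cell death that NF-kB induces, lay at 7.59, 7.8 and 7.96 against 7.16, 7.25 and 7.9, a difference of 0.43 (SE 0.123), the 1 call among 19 NF-kB genes and among 22 of the BCL2 and caspase families. Permanent-MCAO + tPA replicate 5 was the array that overlapped.

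The remaining genes with the largest higher calls had varied roles. Irgm, an immunity-related GTPase, lay at 5.88, 6.41 and 6.77 against 5.2, 5.59 and 6.26, a difference of 0.71 (SE 0.19), and it differed by 0.61 (SE 0.427) without tPA as well. Rnf114, a ubiquitin ligase, lay at 8.45, 8.74 and 9.17 against 7.75, 8.11 and 8.54, a difference of 0.65 (SE 0.177), and a dimmer gene probe of it differed by 0.95 (SE 0.249) with no overlap. The calls of Irgm and of the brighter Rnf114 gene probe held in every fit that left 1 array out. Bcat1, a transaminase of the branched-chain amino acids, lay at 5.97, 6.11 and 6.85 against 4.64, 5.45 and 6.11, a difference of 0.79 (SE 0.237), with reperfused-MCAO + tPA replicate 5 well above the rest of its group. Gsap, which regulates gamma-secretase, lay at 7.85, 8.19 and 8.3 against 6.83, 7.41 and 7.97, a difference of 0.74 (SE 0.208).

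Only 8 genes bright enough to be named were called lower in reperfused-MCAO + tPA, and apart from Serpinb11 their differences were small. Serpinb11, a serine protease inhibitor of the serpin family, lay at 2.29, 2.49 and 5.9 against 2.3, 7.87 and 9.89, a difference of -4.26 (SE 1.16). In 5 reperfused rats it lay between 2.29 and 2.62 and in 5 permanent rats between 7.3 and 9.89, with reperfused replicate 1 at 5.9 and permanent replicate 5 at 2.3, and the SD was 3.41 and 2.72 in the reperfused-MCAO and permanent-MCAO rats without tPA, so the gene varied widely within groups too. Nfyb, a subunit of the CCAAT-binding factor NF-Y, lay at 6.06, 6.51 and 6.88 against 6.58, 7.24 and 7.52, a difference of -0.67 (SE 0.19). Zng1a, a zinc chaperone, differed by -0.63 (SE 0.196), from 6.05, 6.4 and 6.89 against 6.79, 6.95 and 7.79. The groups overlapped for both genes.

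The other 5 had varied roles. Gtf2h3, a subunit of the transcription and repair factor TFIIH, lay at 7.13, 7.38 and 7.5 against 7.51, 7.63 and 7.96, a difference of -0.33 (SE 0.0914) without overlap, although the highest reperfused array (7.5) and the lowest permanent array (7.51) were nearly level. Arid2, a subunit of a chromatin remodeler, lay at 7.98, 8.1 and 8.24 against 8.22, 8.33 and 8.82, a difference of -0.31 (SE 0.0943), but another of its gene probes differed by 0.3 (SE 0.225). Usp10, a deubiquitinase, lay at 7.38, 7.63 and 8.02 against 7.76, 8.12 and 8.24, a difference of -0.4 (SE 0.109). Fkbp1a, the binding protein of the drug FK506, lay at 8.29, 8.66 and 8.95 against 8.79, 9.07 and 9.28, a difference of -0.4 (SE 0.12), and the difference of differences, -0.6 (SE 0.212), was called. Arl3, a small GTPase of cilia, lay at 6.68, 6.87 and 6.97 against 6.92, 7.17 and 7.41, a difference of -0.28 (SE 0.0815).

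**Figure D4:**
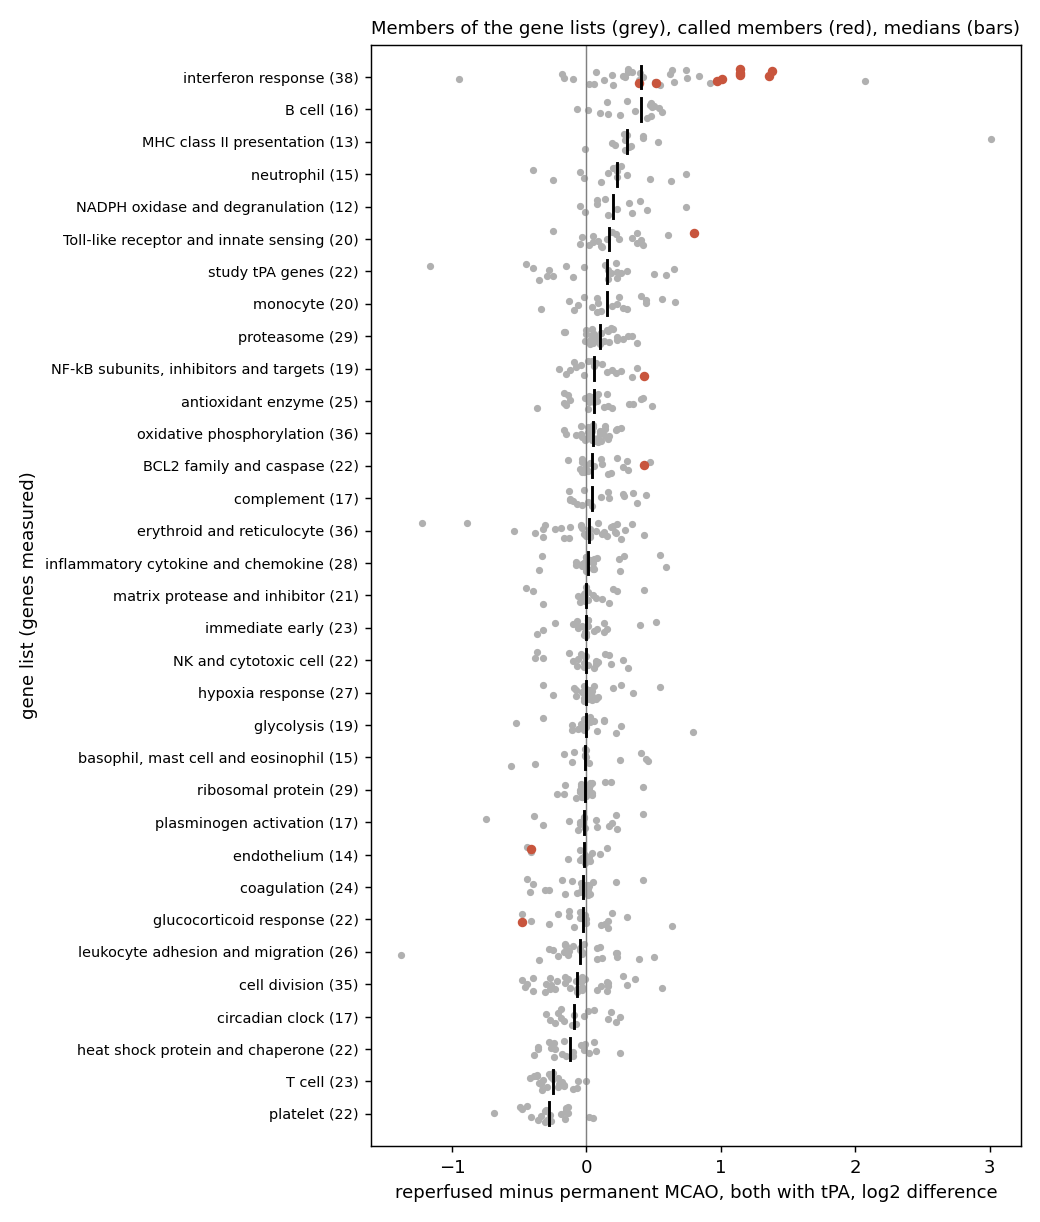
Reperfused minus permanent MCAO, both with tPA, as a log2 difference (horizontal axis), for the members of 33 gene lists (vertical axis, with the number of genes measured): grey points were not called, red points were called, and the black bar is the median of the list. The interferon list holds 9 red points and a median of 0.41, and the platelet and T cell lists, at -0.28 and -0.25, lie at the other end with no red point.

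None of the genes in the blood cell type lists was called, and in the T cell, platelet and B cell lists nearly all members lay in 1 direction. All 23 T cell genes had the lower mean in reperfused-MCAO + tPA, with a median of -0.25, and none was called. Il7r, the interleukin 7 receptor, differed by -0.42 (SE 0.237, 9.14 to 9.83 against 9.24 to 10.66) and Gata3, a factor of helper T cells, by -0.32 (SE 0.184, 7.38 to 7.89 against 7.34 to 8.6). The T cell mean per array lay between 8.4 and 9.17 in reperfused-MCAO + tPA and between 8.19 and 9.78 in permanent-MCAO + tPA, so the groups overlapped. Permanent-MCAO + tPA replicates 3 and 4, at 9.73 and 9.78, lay above every reperfused array, and replicate 1, at 8.19, lay below every one. Without tPA the median was -0.08. The T cell median was -0.54 without permanent-MCAO + tPA replicates 1 and 2, with 1 gene called, in a fit that called 289 of all 14217 genes. It was -0.43 without replicate 1 alone and -0.11 without replicate 4. With the hybridization control level in the fit the T cell median was -0.12 with 3 genes higher.

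Of 22 platelet genes, 20 had the lower mean, with a median of -0.28 and 0 called. P2ry12, the platelet receptor for ADP, differed by -0.69 (SE 0.403, 5.95 to 8.51 against 7.21 to 8.93) and Sparc, a matrix protein of platelet granules, by -0.48 (SE 0.317, 3.08 to 3.79 against 3.0 to 5.37). Without tPA the platelet median was 0.21, and the difference of differences was negative for all 22 genes, with a median of -0.46 and 0 called. The platelet median moved to -0.08 without reperfused-MCAO + tPA replicate 2, whose platelet mean of 8.67 was the lowest of the 12 arrays, and to -0.06 without permanent-MCAO + tPA replicates 1 and 2.

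The B cell genes lay in the other direction. Of 16 genes, 15 had the higher mean in reperfused-MCAO + tPA, with a median of 0.4 and 0 called. Fcrla, a B cell Fc receptor-like protein, differed by 0.5 (SE 0.317, 9.64 to 11.3 against 9.5 to 10.84) and Cd79b, a subunit of the B cell receptor, by 0.56 (SE 0.378, 9.37 to 10.92 against 8.67 to 10.52). The median ran from 0.21 without reperfused-MCAO + tPA replicate 2 to 0.62 without reperfused-MCAO + tPA replicate 5. Of 13 MHC class II genes, which B cells and monocytes use to present antigen, 12 had the higher mean, with a median of 0.3 and 0 called. Their differences ran from -0.01 to 3.01, so the list did not move evenly. RT1-DMb, which loads peptide on class II, differed by 0.42 (SE 0.22, 9.7 to 10.73 against 9.19 to 10.39) and Ifi30, a thiol reductase that prepares antigens, by 0.53 (SE 0.262, 10.45 to 11.43 against 9.97 to 11.16). Without tPA, 12 of the 13 class II genes were also higher, with a median of 0.18, while 7 of the 16 B cell genes were, with a median of -0.01. The class II median was 0.06 without permanent-MCAO + tPA replicates 1 and 2.

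The myeloid lists leaned the same way with and without tPA. For 20 monocyte genes the median was 0.15 with tPA and 0.24 without, and Fcgr3a, an Fc receptor, differed by 0.66 (SE 0.342, 7.57 to 8.81 against 6.8 to 8.32) and Ly86, the partner of Cd180, by 0.56 (SE 0.254, 10.05 to 10.64 against 9.01 to 10.69). For 15 neutrophil genes the median was 0.23 with tPA and 0.38 without, and Hp, haptoglobin, differed by 0.74 (SE 0.537, 8.17 to 10.06 against 5.95 to 9.2) and Csf3r, the receptor of granulocyte colony-stimulating factor, by 0.47 (SE 0.32, 9.16 to 10.71 against 8.96 to 10.65). Cyba and Ncf4, subunits of the NADPH oxidase, differed by 0.45 (SE 0.242, 7.88 to 8.83 against 7.05 to 8.37) and 0.4 (SE 0.276, 9.74 to 10.98 against 8.89 to 10.64). None of the monocyte, neutrophil or NADPH oxidase genes was called. The neutrophil median was -0.02 without permanent-MCAO + tPA replicate 4, and the monocyte median was -0.0 without permanent-MCAO + tPA replicates 1 and 2.

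Cytotoxic, erythroid and granulocyte genes were divided in direction with tPA. Among 22 NK and cytotoxic genes (11 higher and 11 lower, median -0.0), Klrc1 differed by -0.38 (SE 0.244, 2.87 to 3.73 against 2.96 to 4.29) and Xcl1 by -0.37 (SE 0.253, 4.54 to 4.86 against 4.41 to 6.21). Without tPA 19 of the 22 were higher, with a median of 0.38 and 1 called, against 130 called of all 14217 genes. The difference of differences for the NK list had a median of -0.35 with 3 of 22 positive and 0 called. Without permanent-MCAO + tPA replicates 1 and 2 the NK median with tPA was -0.25, with 6 of 22 higher. Among 36 erythroid and reticulocyte genes (20 higher and 16 lower, median 0.02), the median was -0.22 without tPA, with 4 of 36 higher. The 2 of smallest p with tPA were both lower: Xk, a red cell membrane protein, differed by -1.22 (SE 0.669, 2.51 to 4.08 against 3.17 to 7.07) and Uros, an enzyme of heme synthesis, by -0.89 (SE 0.618, 3.65 to 7.4 against 5.98 to 8.41). Both spread most in permanent-MCAO + tPA, and without replicates 1 and 2 of that group the erythroid median was 0.2 with 4 genes called. That fit called 289 of all 14217 genes. Among 15 basophil, mast cell and eosinophil genes (6 higher and 9 lower, median -0.01), Fcer1a differed by 0.46 (SE 0.223, 2.89 to 4.23 against 2.82 to 3.61) and Ccr3 by -0.56 (SE 0.528, 4.45 to 5.77 against 4.12 to 7.12). With all 12 arrays none of these 3 lists held a call for the contrast with tPA.

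Stress, immune mediator and cell cycle lists held few calls or none. Errfi1, a feedback inhibitor of growth factor receptors that glucocorticoids induce, lay at 2.71, 3.31 and 3.46 against 3.42, 3.7 and 4.06, a difference of -0.48 (SE 0.148), the 1 call among 22 glucocorticoid response genes, and it was dim. Fkbp5, the best known of those genes, differed by -0.41 (SE 0.233, 6.79 to 8.06 against 7.35 to 8.35), against 0.37 without tPA. The median of the glucocorticoid list was -0.03 with tPA and 0.25 without. Of 22 heat shock genes 18 had the lower mean (median -0.12), with Hsp90ab1 at -0.36 (SE 0.201, 10.22 to 11.11 against 10.64 to 11.65) and Hsph1 at -0.28 (SE 0.174, 8.64 to 9.17 against 8.56 to 9.66). Among 35 cell division genes (median -0.07), Kif20a, a mitotic kinesin, differed by -0.44 (SE 0.189, 4.93 to 5.78 against 5.4 to 6.13). Among 23 immediate early genes (median -0.0), Dusp2 differed by -0.37 (SE 0.216, 6.38 to 7.29 against 6.37 to 7.58) and Junb, dim on these arrays, by -0.06 (SE 0.0287, 1.79 to 1.84 against 1.82 to 1.98).

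Among 28 cytokines and chemokines (median 0.01), Csf1, the growth factor of monocytes, differed by 0.59 (SE 0.241, 3.41 to 4.57 against 2.69 to 4.17) and Ccl3 by -0.35 (SE 0.182, 7.88 to 8.27 against 7.65 to 8.72). Among 26 adhesion genes (median -0.05), F11r, a junctional adhesion molecule of platelets and endothelium, differed by -1.38 (SE 0.454, 5.14 to 7.11 against 6.78 to 8.73) and Cd99, which acts in the passage of leukocytes through vessel walls, by 0.5 (SE 0.192, 3.05 to 4.18 against 2.91 to 3.53). F11r just missed the call and was called in 4 of the 12 fits without 1 array. Bcl2a1, a survival protein of myeloid cells, differed by 0.31 (SE 0.162, 9.96 to 10.69 against 9.84 to 10.63), and Nfkbia, the NF-kB inhibitor, by -0.2 (SE 0.149, 6.23 to 7.22 against 6.56 to 7.1). Among 17 complement genes (median 0.04), Cfp, properdin, differed by 0.35 (SE 0.192, 7.35 to 8.28 against 7.21 to 8.09).

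Metabolic and housekeeping lists differed little. Of 29 proteasome genes 26 had the higher mean, with a median of 0.1 and 0 called. Psmb7 differed by 0.23 (SE 0.0899, 10.45 to 10.66 against 10.04 to 10.65) and Psma3 by 0.38 (SE 0.17, 7.43 to 8.23 against 7.13 to 7.9), and without permanent-MCAO + tPA replicates 1 and 2 only 14 of the 29 were higher, with a median of -0.0. Of 36 oxidative phosphorylation genes 28 had the higher mean (median 0.05), with Sdhb at 0.26 (SE 0.152, 8.51 to 9.01 against 7.98 to 8.8) and Uqcrc1 at 0.14 (SE 0.102, 8.22 to 8.7 against 8.1 to 8.62). Among 25 antioxidant genes (median 0.06), Prdx4 differed by 0.41 (SE 0.2, 7.89 to 9.06 against 7.54 to 8.13) and Gpx1 by 0.13 (SE 0.0635, 14.12 to 14.32 against 13.81 to 14.21). Among 19 glycolysis genes (median 0.0), Pfkp differed by -0.52 (SE 0.204, 6.89 to 7.65 against 7.37 to 8.5) and Aldoc by 0.79 (SE 0.254, 2.54 to 4.28 against 2.33 to 3.09). The medians were 0.0 for 27 hypoxia genes, with Vegfa at 0.26 (SE 0.188, 4.17 to 5.35 against 4.11 to 4.62) and Hmox1 at 0.35 (SE 0.293, 4.42 to 5.83 against 3.99 to 5.4), and -0.01 for 29 ribosomal protein genes, with Rpl22 at -0.17 (SE 0.0841, 10.86 to 11.16 against 10.98 to 11.51) and Rpsa at 0.14 (SE 0.0924, 12.44 to 12.9 against 12.33 to 12.76). None of the genes in this paragraph was called.

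The system on which tPA acts was mostly dim in blood RNA. Of 17 plasminogen activation genes 7 had a mean of at least log2 4, and none was called. Plat, the gene of rat tPA itself, lay between 2.93 and 3.13 against 2.92 to 4.2, a difference of -0.32 (SE 0.203), and the injected human protein is not read by this gene probe. Plg, the gene of plasminogen, differed by -0.05 (SE 0.0325, 2.4 to 2.45 against 2.4 to 2.6). In the coagulation list (24 genes, median -0.03) Pros1, protein S, differed by -0.4 (SE 0.281, 3.14 to 4.23 against 3.0 to 4.47) and Serpinc1, antithrombin, by -0.04 (SE 0.028, 2.1 to 2.13 against 2.1 to 2.27). Among 21 matrix protease genes Mmp11 and Mmp12 were at or near the floor, with differences of 0.07 (SE 0.0559, 2.38 to 2.73 against 2.38 to 2.43) and -0.03 (SE 0.023, 2.36 to 2.4 against 2.36 to 2.47).

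Of 22 measured genes that the study named for tPA, which were chosen on these same samples, 12 had the higher mean in reperfused-MCAO + tPA and 0 were called. Serpinb6a, a protease inhibitor of the serpin family, lay at 7.28, 8.41 and 9.55 against 8.4, 9.13 and 10.93, a difference of -1.16 (SE 0.507), against 0.65 (SE 0.401) without tPA. The other gene of smallest p in that list was Csf1, given above.

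Genes that mark brain, heart and vessel lay near the floor of the array. All 14 brain genes had the lower mean in reperfused-MCAO + tPA, with a median of -0.03, and 1 of the 14 had a mean of at least log2 4. Without permanent-MCAO + tPA replicates 1 and 2, 8 of the 14 had the higher mean and the median was 0.0, and with array weights 4 did. Mog and Camk2a differed by -0.1 (SE 0.0513, 2.37 to 2.5 against 2.4 to 2.71) and -0.13 (SE 0.09, 2.62 to 2.73 against 2.61 to 3.14). Of 14 heart muscle genes none reached that level, and Myh6 lay between 2.25 and 2.3 in reperfused-MCAO + tPA and between 2.25 and 6.04 in permanent-MCAO + tPA, a difference of -0.73 (SE 0.589) that came from replicate 4. Myl3 differed by -0.08 (SE 0.0618, 1.99 to 2.04 against 1.98 to 2.37). Tek, the angiopoietin receptor of endothelium, lay at 2.6, 2.71 and 2.73 against 2.9, 3.05 and 3.56, a difference of -0.41 (SE 0.0933) without overlap, the 1 call among 14 endothelial genes, at a level below log2 4. Ramp2, another endothelial gene, differed by -0.41 (SE 0.18, 2.21 to 2.27 against 2.2 to 3.48). The circadian clock genes Bmal1 and Hlf were dim as well and differed by -0.23 (SE 0.106, 2.9 to 3.11 against 3.07 to 3.71) and -0.19 (SE 0.11, 2.82 to 3.16 against 2.86 to 3.46), in a list of 17 with a median of -0.09.

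The direct test of whether the contrast differed with tPA called 92 gene probes, 28 positive and 64 negative, and 0 passed adjustment in limma (smallest adjusted p 0.978, with 782 gene probes under 0.05 before adjustment). The methods' test called 79, also with 0 after adjustment and 930 under 0.05. The 12 genes of smallest p, 6 a side, are given as the difference of differences, that is reperfused minus permanent with tPA less the same without. On the positive side, Pttg1, securin, which restrains the protease that frees sister chromatids, was 1.47 (SE 0.359). It averaged 11.24 in reperfused-MCAO and 12.35 in permanent-MCAO without tPA, and 12.29 and 11.93 with tPA. Cuedc2, a ubiquitin-binding protein, was 0.63 (SE 0.165), with 0.33 (SE 0.0977) under tPA, where it was called too, and -0.3 (SE 0.129) without. Cd59b, which shields cells from complement, was 0.72 (SE 0.23), with 0.44 (SE 0.18) under tPA and -0.28 (SE 0.136) without. Dpm1, an enzyme of protein glycosylation, was 0.67 (SE 0.203), and Atp5pf, a subunit of the mitochondrial ATP synthase, 0.43 (SE 0.133). Herc6 was the other gene of this side.

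On the negative side, Tln1, Actn1 and Lasp1 encode proteins that tie integrins to actin or bind actin. Tln1, talin, was -0.59 (SE 0.157): it was 0.43 (SE 0.067) higher in reperfused-MCAO than in permanent-MCAO without tPA and differed by -0.16 (SE 0.139) with tPA. Actn1, alpha-actinin, was -0.81 (SE 0.22), with 0.47 (SE 0.138) without tPA and -0.35 (SE 0.166) with tPA. Lasp1 was -0.4 (SE 0.13), with 0.36 (SE 0.0922) without tPA and -0.04 (SE 0.0884) with tPA. For these 3 genes the contrast was thus the smaller in size with tPA. Irs2, an adaptor of the insulin receptor, was -0.96 (SE 0.252), Fam53c -0.55 (SE 0.172) and Evi2b, a leukocyte membrane protein, -0.41 (SE 0.131). Irs2 lay at 5.51, 6.04 and 6.7 in reperfused-MCAO + tPA and at 6.16, 6.74 and 6.87 in permanent-MCAO + tPA.

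**Figure D5:**
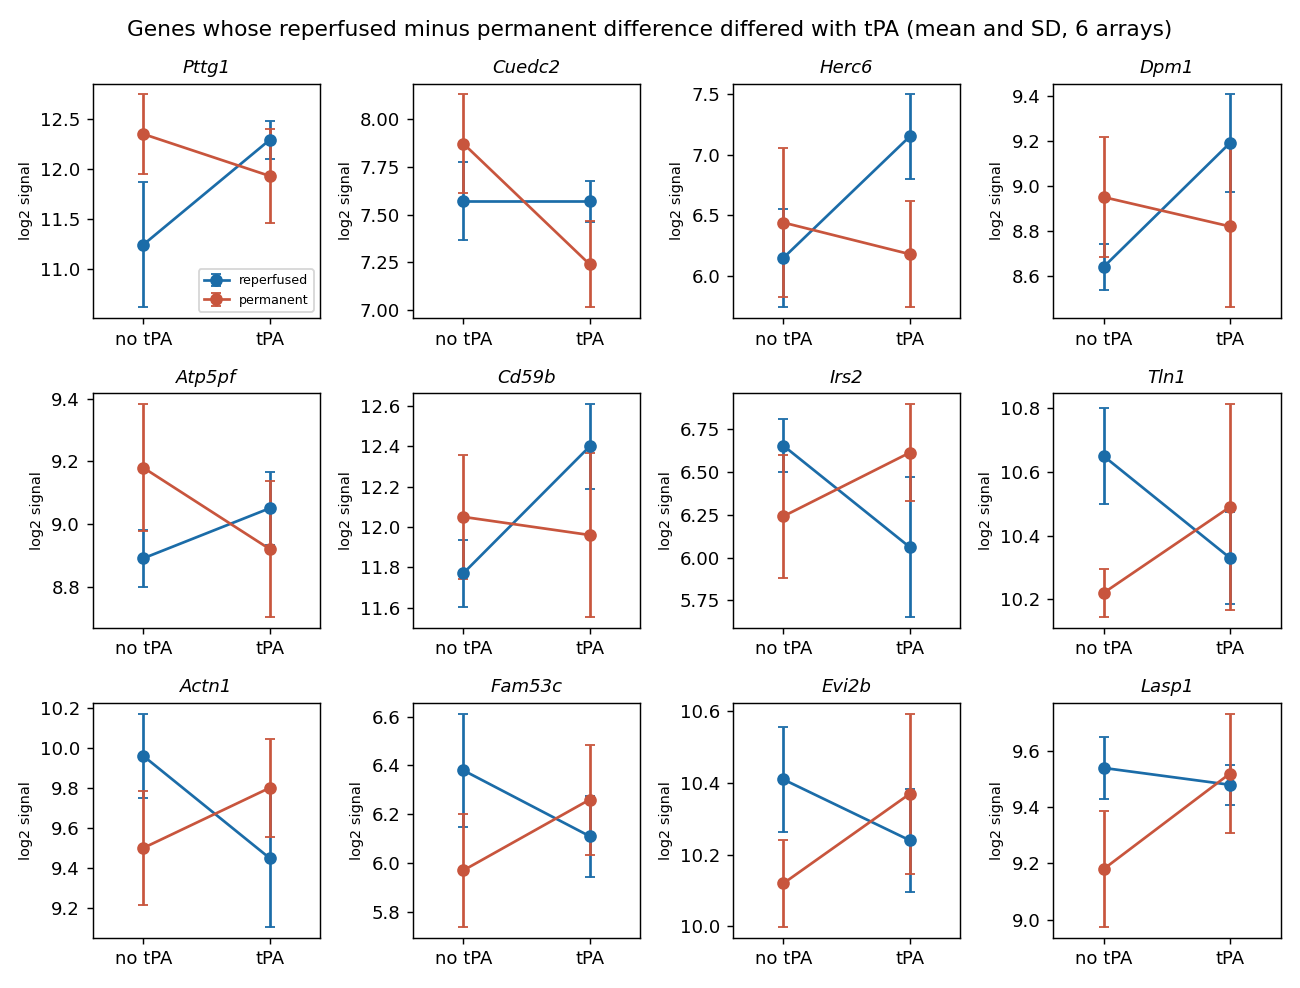
Mean log2 signal with SD (n = 6 arrays) without and with tPA in reperfused-MCAO (blue) and permanent-MCAO (red) for the 12 genes given for the difference of differences; the vertical ranges do not start at 0. The lines cross in all 12 panels, as in Pttg1, where reperfused rats averaged 11.24 without tPA and 12.29 with tPA and permanent rats 12.35 and 11.93.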

How the data were processed

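Blood RNA from 42 rats, collected in PAXgene tubes and amplified with NuGEN Ovation Whole Blood reagents, was hybridized to Affymetrix rat genome arrays. The deposited log2 values were made by the authors with GC-RMA in Partek, which corrects background by probe sequence and equalizes array distributions, so shifts shared by all genes are removed. Here 57 control probe sets were set aside. limma 3.58.1 (R 4.3.3) was fitted on the 12 tPA-treated MCAO arrays, and the difference from untreated rats on the 24 MCAO arrays. A call required p of at most 0.01 and a fold of at least 1.2, and p-values were adjusted over all 31042 gene probes. Exact permutation tests were two-sided. The fits were also run on simulated data with independent noise and 1 SD per gene probe for all groups. Unequal spread between groups and arrays that stand apart were not simulated, so that run does not cover them.

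Symbols came from the platform annotation: 20826 gene probes had 1 symbol, 436 several and 9780 none. A gene with several was read on that of highest mean. Named genes were the 12 highest and 12 lowest called (higher group mean at least log2 6; 8 existed on the lower side), the 2 of smallest p in each of 35 lists, and the 6 of smallest p on each side of the difference from untreated rats. The members and lists were chosen with earlier results of these data known. Alternatives were scaling, filters, covariates, weights, a replicate block and arrays left out. Replicate numbers name different rats and were not used to pair the arrays in the main fits. The number of arrays limits the precision, and each array is 1 rat.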

Additional observations from a re-analysis of the deposited data

Results flagged for a closer look

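Among 234 sets of 6 values examined for the named genes and 7 list means, 24 held an array whose gap to the nearest other took more of the range than the critical value allows, and chance alone flags about 1 in 20 such sets. In reperfused-MCAO + tPA, replicate 5 was the array apart for Ifi27 (8.01), Rsad2 (13.19), Bcat1 (6.85) and Errfi1 (2.71), replicate 3 for Pttg1 (12.67), Klrc1 (3.73), Hsp90ab1 (10.22) and the mean of the erythroid and reticulocyte genes (10.93), and replicates 1, 2 and 4 for Serpinb11 (5.9), Atp5pf (9.28) and Pros1 (4.23). In permanent-MCAO + tPA, replicate 1 was apart for Fcer1a (3.61), Serpinc1 (2.27), Uros (8.41) and the mean of the cell division genes (6.83), and replicate 2 for Ifit1 (4.83) and Tek (3.56). Replicate 4 was apart for Atp5pf (8.49), Myh6 (6.04) and the mean of the heart muscle genes (2.73), replicate 5 for Serpinb11 (2.3) and Birc3 (7.9), and replicate 6 for Cfp (8.09) and Vegfa (4.62).

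For 15 named genes the reperfused minus permanent difference with tPA differed from that without at an unadjusted limma p of at most 0.01, none of them after adjustment. The difference of differences was positive for Mx2 (1.68), Pttg1 (1.47), Herc6 (1.26), Cd59b (0.72), Dpm1 (0.67), Aif1 (0.65), Cuedc2 (0.63) and Atp5pf (0.43). It was negative for Irs2 (-0.96), Actn1 (-0.81), Fkbp1a (-0.6), Tln1 (-0.59), Fam53c (-0.55), Evi2b (-0.41) and Lasp1 (-0.4). Apart from Mx2, Aif1 and Fkbp1a, these genes were picked for the smallest p in this same test, so passing it was built into their choice. Herc6, Pttg1 and Cd59b were also named by another rule. The count of 15 is therefore no measure of how often named genes differed. Of all 14217 genes, 0.106% were called positive and 0.183% negative in that test. What lies behind the differences of differences was not tested.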

How the results depend on the processing

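The 103 gene probes called became 162 with all 42 arrays in 1 fit, 207 with array weights, 180 with the hybridization control level in the fit, 64 over gene probes with a mean of at least log2 4, 40 at a fold of at least 1.5 and 468 without permanent-MCAO + tPA replicates 1 and 2, an alternative chosen after seeing the data. Leaving out single arrays gave 85 to 173, the highest without permanent-MCAO + tPA replicates 5 (173) and 6 (156). The share called higher, 58.3%, was 44.0% with array weights, 69.0% with median centring, 71.9% over brighter gene probes and 77.5% at a fold of 1.5, and ran from 40.3% without permanent-MCAO + tPA replicate 1 to 71.7% without replicate 5. No alternative gave a gene probe past adjustment for this contrast, and the cause of these shifts was not tested. The 92 calls for the difference from untreated rats became 370 with array weights, 49 over brighter gene probes, 250 with the hybridization control level and 627 without replicates 1 and 2, where 2 gene probes, of Mrpl53 and Tinagl1 (named after their values were seen), passed adjustment. Leaving out single arrays gave 84 to 233, the highest without permanent-MCAO + tPA replicate 1. With the replicate block 99 and 95 gene probes were called, and 4 interferon genes in place of 9. The deviations of same-numbered arrays from their group means correlated between -0.235 and 0.035. Differently numbered arrays were not compared, so these values do not settle whether the numbers mark pairs or batches. The hybridization control difference was 0.107 with cre added.

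The 9 interferon calls ranged from 7 to 10 under the weighting, scaling, filter, covariate and test alternatives other than the block. Over all genes the same alternatives called from 37 (gene probes with a mean of at least log2 4) to 107 (array weights), against 58. Over the named genes and alternatives, 3 values reversed: Mx1 at -0.02 without permanent-MCAO + tPA replicate 1 and -0.19 without replicates 1 and 2, and Rsad2 at -0.01 without permanent-MCAO + tPA replicate 6. With single arrays left out Mx1 ran from -0.02 to 0.35 and Rsad2 from -0.01 to 0.18. Another 223 lost a call and 36 gained one, while 2135 kept their direction and their state, called or not. Most named genes were not called in the main fit, so many of the 2135 had no call to lose. That number is therefore no measure of how stable the calls were. The replicate block lost the most calls, 17. GC-RMA leaves dim genes compressed near the floor, so their differences carry little information.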
